A study of Mus musculus with 2 samples.

Results

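The histone genes of the mouse were followed from bone marrow monocytes to the macrophages that form from them with lysophosphatidic acid (LPA, a signalling phospholipid). They were chosen by name, as the rows of the deposited gene table whose symbol begins with Hist1h to Hist4h, H1f, H2af or H3f, and 92 of 47643 rows met that rule. Of these, 71 have a Hist symbol and are called clustered replication histone genes here by symbol alone, and 21 are variant histone rows. The Hist rows include the pseudogenes Hist1h2aj, Hist1h2al and Hist3h2bb-ps, and testis genes named below. In GENCODE M21, 80 of the 92 are annotated as protein-coding and 8 as pseudogenes, and 4 have another annotation or none. The RNA was total RNA from wild type C57BL/6 mice at the age of 6 weeks, with 1 library for the monocytes and 1 for the LPA-derived macrophages. A culture without LPA is not analysed here, so LPA, culture and differentiation cannot be told apart. The labels give neither the number of animals in a library nor the time in culture.

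Histones are the proteins around which nuclear DNA is wound: H2A, H2B, H3 and H4 form the core of the nucleosome, and H1 binds the linker DNA between cores. Clustered replication genes are transcribed mostly in S phase, and their mRNAs end in a conserved stem-loop, bound by the protein SLBP, in place of a poly(A) tail. Variant genes such as H3f3a, H3f3b, H2afz and H2afy are expressed outside S phase as well, give polyadenylated mRNAs and supply histones that are exchanged into chromatin without DNA replication. Some clustered genes, Hist1h1c, Hist1h2bc, Hist2h2be and Hist4h4 among them by name, are described in human tissue as also giving polyadenylated mRNA in differentiated cells. The labels do not say whether poly(A) RNA was selected, and the part of such a step in the level of a clustered gene against a variant gene was not tested.

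The stem-loop was read from GENCODE M21 transcripts, because it is the feature that sets the clustered genes apart from the variants at the RNA level. A search for its 16-base consensus found it in 44 of 65 protein-coding Hist genes (67.7%) and in 1 of 15 protein-coding variant genes (6.67%, H2afx). It was also in 41 of 55360 other genes (0.0741%), which are of any annotated type, so that share is not like for like. A missing match says only that these letters are not in the annotated transcript. The site is shown for the highest Hist gene of the H1, H2A and H4 classes, for Hist1h2bg, for members of the H3 class with the usual and a rarer stem-loop, and for H2afx. Capitals mark the stem-loop and lower case up to 5 bases on each side, written as DNA, 5′ to 3′.
Hist1h1c: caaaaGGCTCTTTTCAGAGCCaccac
Hist1h2ap: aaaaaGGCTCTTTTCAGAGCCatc
Hist1h2bg: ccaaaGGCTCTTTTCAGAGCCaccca
Hist1h3a: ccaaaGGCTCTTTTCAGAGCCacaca
Hist1h3g: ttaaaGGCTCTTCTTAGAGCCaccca
Hist1h4i: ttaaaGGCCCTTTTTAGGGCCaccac
H2afx: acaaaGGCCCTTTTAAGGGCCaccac
Hist1h1c, Hist1h2ap, Hist1h2bg and Hist1h3a share the same 16 bases, found in 24 of the genes, while Hist1h4i shares its own with 1 other gene and those of Hist1h3g and H2afx were found in no other histone gene. Of the 44 transcripts, 22 ended less than 100 bases after the stem-loop, 1 of these with AATAAA or ATTAAA in its last 50 bases, and 22 ran on for 100 bases or more, 12 of these with such a poly(A) signal. Hist1h1c ran on for 840 bases, H2afx for 822 and Hist1h4i for 330, each with a signal. Hist1h2ap ended 3 bases after the stem-loop and had none.

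Levels are given as CPM, unique exon reads scaled to a common library total. The monocyte library had 12473180 such reads and the macrophage library 16726342. In pairs of values monocytes come first and macrophages second, and ratios are monocytes over macrophages. Genes at 5 CPM or more in either library were compared, with a call at 2-fold on log2(CPM + 1). With 1 library a group there was no test, and the intervals are exact 95% counting intervals, which cover no difference between animals or cultures. Of 10407 genes compared, 19.9% were called lower and 13.8% higher in macrophages, and their median log2 ratio, macrophages minus monocytes, was -0.23. At 4-fold, 6.70% were lower and 5.92% higher. Markers went with the labels in part: 4 of 4 macrophage markers, Adgre1 among them, were higher in the macrophage library (summed 319.1 and 2761 CPM), and of 4 monocyte markers 2 were lower (Ly6c2 and Ccr2), 1 higher (Csf1r) and 1 within 2-fold (Cd14). In bulk RNA, fewer cells of a kind and less RNA per cell cannot be told apart.

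Histone transcripts were lower in the LPA-derived macrophages, in the clustered genes and the variants alike. Of the 66 members with an exon read in either library, 63 had a lower CPM in macrophages and 3 a higher one. The share of all genes by that rule was not taken and many of the 66 had few reads, so the count supports nothing by itself. The 71 Hist rows summed to 1200 and 334.9 CPM (14969 and 5602 reads), 3.58-fold lower (3.47 to 3.70). The 21 variant rows summed to 5198 and 1520 CPM, 3.42-fold lower (3.37 to 3.47). The sums of the groups thus differed by nearly the same factor between libraries, but the Hist sum was held by few genes. Hist1h1c, Hist1h2ap and Hist1h2bc took 85.8% (Wilson 95% interval 85.2 to 86.3%) of Hist reads in monocytes and 90.4% (89.7 to 91.2%) in macrophages. The other 68 Hist rows together stood at 170.5 and 31.99 CPM, 5.33-fold lower (4.85 to 5.87).

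Of 11 Hist genes that reached 5 CPM, 10 were called lower and none higher, and of 8 such variant genes 7 were lower and none higher, where 19.9% of all genes were lower. The count and the median over the Hist genes support nothing by themselves, since 6 of the 11 reached the floor in monocytes only and so had to be lower. All 8 variants reached it in both libraries. The median log2 ratio was -2.38 for the 11 Hist genes, -1.39 for the 5 of them at the floor in both libraries, and -1.80 for the 8 variants, against -0.23 for all genes. Just under the floor lay Hist1h4h (highest level 4.49 CPM), Hist1h3c (4.41 CPM) and Hist1h2ac (4.17 CPM), and just above it Hist1h1b (5.13 CPM), Hist1h2bb (5.29 CPM) and Hist1h1d (5.77 CPM).

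**Figure D1:**
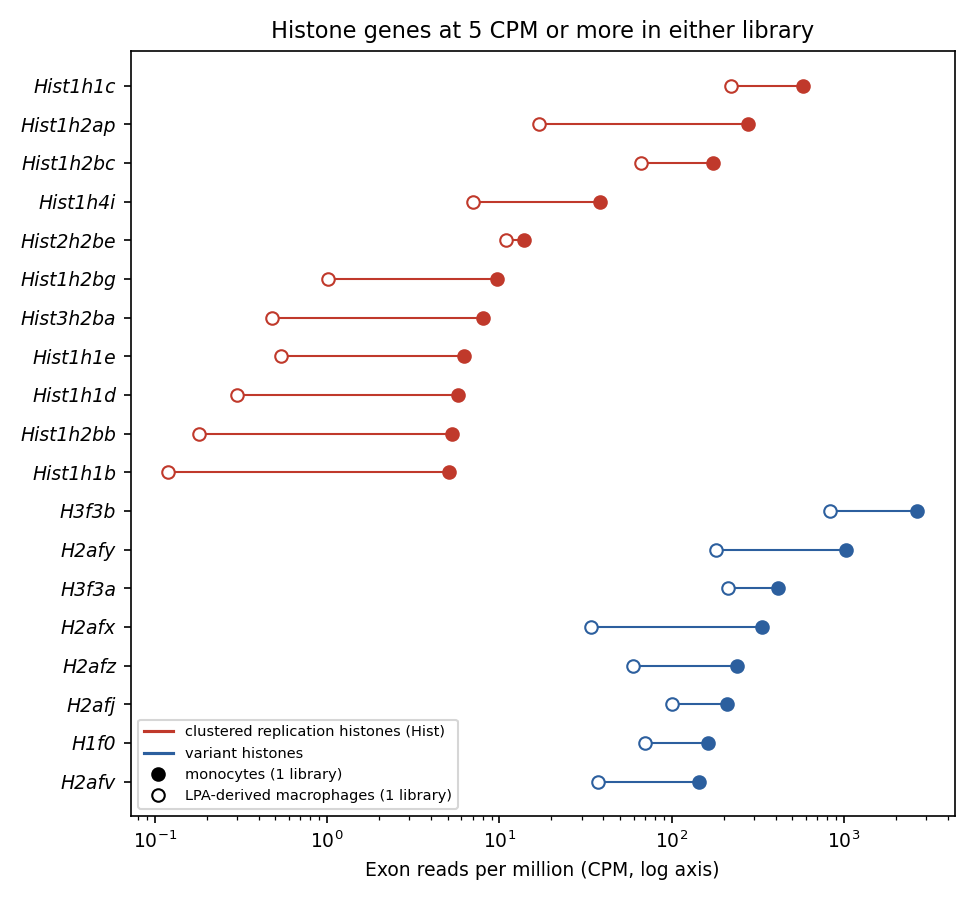
CPM on a log axis of the 19 histone genes at 5 CPM or more in either library, with filled points for the monocyte and open points for the macrophage library, 1 library each. The open point lies left of the filled one for each gene, with the shortest line for Hist2h2be and the longest for Hist1h1b.

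Among the linker histone genes, Hist1h1c (chromosome 13, 23738808 to 23740367 on GRCm38), which encodes H1.2, was the Hist gene with most reads in both libraries. It stood at 578.4 and 219.9 CPM, 2.63-fold lower (2.53 to 2.74). The other replication H1 genes were far less abundant and the ratios larger. Hist1h1b had 64 reads in monocytes and 2 in macrophages, 42.9-fold lower (11.4 to 362). The authors' deposited table gives 24.7-fold for it. By unique gene reads, which also count reads deposited as intron reads (11 and 2 here), Hist1h1b had 75 and 4. Its exon length, 743 bases, fills its deposited span, so the place of those reads is not known. Hist1h1d had 72 and 5 reads, 19.3-fold lower (7.90 to 61.3). Hist1h1e had 78 and 9 reads, 11.6-fold lower (5.82 to 26.4). Hist1h1a, under the floor, had 44 reads and 0 reads. With 3 reads set in place of the 0, its ratio was 19.7, and the exact interval for the reads as counted starts at 15.3. Summed without Hist1h1c, replication H1 was 21.6-fold lower (13.1 to 38.4). The replacement linker histone gene H1f0 (chromosome 15, 79028212 to 79030498), typical of differentiated and resting cells, stood at 161.7 and 69.8 CPM, 2.32-fold lower (2.15 to 2.49), and was within 2-fold after centring on the median of all genes. H1fx, another linker variant, had 47 and 34 reads, under the floor.

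Replication H2A genes had the largest ratio of the replication classes in sum, 16.5 (14.7 to 18.6). Hist1h2ap (chromosome 13, 21833026 to 21833507) stood at 278.3 and 16.9 CPM, 16.4-fold lower (14.6 to 18.6), and in monocytes it had the highest deposited RPKM (exon reads scaled to library size and exon length) of the Hist genes, 484.8. It took 23.2% (22.5 to 23.9%) of Hist reads in monocytes and 5.05% (4.51 to 5.66%) in macrophages. Its level is uncertain, because only 6.93% of the 50-base words of its transcript occur in no other GENCODE M21 gene, and Hist1h2ao, with 6.497%, was given 14 and 0 reads. The other 19 replication H2A rows had 240 reads in monocytes and 19 in macrophages, 16.9-fold lower (10.6 to 28.6), much the ratio of Hist1h2ap itself.

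Of the 5 replication H2B genes past the floor, Hist1h2bc and Hist2h2be reached it in both libraries and the other 3 in monocytes only. Hist1h2bc (chromosome 13, 23684199 to 23692488) stood at 172.9 and 66.1 CPM, 2.61-fold lower (2.43 to 2.81). Hist2h2be (chromosome 3, 96221119 to 96223738) stood at 13.9 and 10.9 CPM, a ratio of 1.28 (1.03 to 1.58) and the 1 Hist gene past the floor that lay within 2-fold. Of the other 3, Hist1h2bg had 120 and 17 reads, 9.47-fold lower (5.67 to 16.8). Hist3h2ba had 100 and 8 reads, 16.8-fold lower (8.19 to 39.9). Hist1h2bb had 66 and 3 reads, 29.5-fold lower (9.66 to 146.7). The authors' deposited table gives 52.8-fold for it. By unique gene reads, which also count reads deposited as intron reads (49 and 0 here), Hist1h2bb had 115 and 3. Its exon length, 452 bases, also fills its deposited span, so the place of those reads is not known. The part of those reads in the difference was not tested. The 18 replication H2B rows other than Hist1h2bc and Hist2h2be summed to 39.1 and 5.68 CPM, 6.89-fold lower (5.52 to 8.68).

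Replication H3 and H4 genes were read little. No Hist H3 gene reached the floor, and the 12 rows had 275 reads in monocytes and 34 in macrophages, 10.8-fold lower (7.58 to 15.98). The H4 gene Hist1h4i (chromosome 13, 22040636 to 22041362) stood at 38.5 and 6.99 CPM, 5.501-fold lower (4.49 to 6.79), and held most reads of its class. The 13 H4 rows summed to 55.5 and 11.2 CPM, 4.94-fold lower (4.20 to 5.83).

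Of the 60 Hist rows under the floor, 45 had a read, with at most 56 reads in monocytes and 39 in macrophages. Of these 45, 14 had no read in macrophages and 1 had none in monocytes. Their summed level was 78.0 and 11.4 CPM, 6.83-fold lower (5.84 to 8.02). The 5 with most reads were Hist1h4h (56 and 39), Hist1h2be (52 and 36), Hist1h2ac (52 and 7), Hist1h3c (55 and 2) and Hist1h2bj (51 and 3). Hist1h4h and Hist1h2be thus differed by about 1.93-fold and 1.94-fold, and Hist1h3c and Hist1h2bj by 36.9-fold and 22.8-fold. Among rows with 10 or more monocyte reads, 24 of 34 had 3 or fewer reads in macrophages. The rows were chosen on monocyte reads, which favours low macrophage counts, so this count supports nothing by itself. Of the 34, 5 had a ratio below 4, namely Hist1h2be, Hist1h4c, Hist1h4h, Hist1h4n and Hist2h3c2, which were picked out after their values were seen. The 3 rows that were higher in macrophages had few reads: Hist1h2bq 4 and 13, Hist1h2br 1 and 3, and Hist2h2bb_1 0 and 1. The interval of the Hist1h2bq ratio of monocytes to macrophages, 0.098 to 1.34, includes equality. Of the unique gene reads of the 60 rows, 64.7 and 60.3% were deposited as exon reads. That share was 96.7 and 95.8% for the 11 Hist genes past the floor and 93.0 and 93.3% for the variants. Exon reads thus leave out a larger part of the gene reads of rows under the floor.

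**Figure D2:**
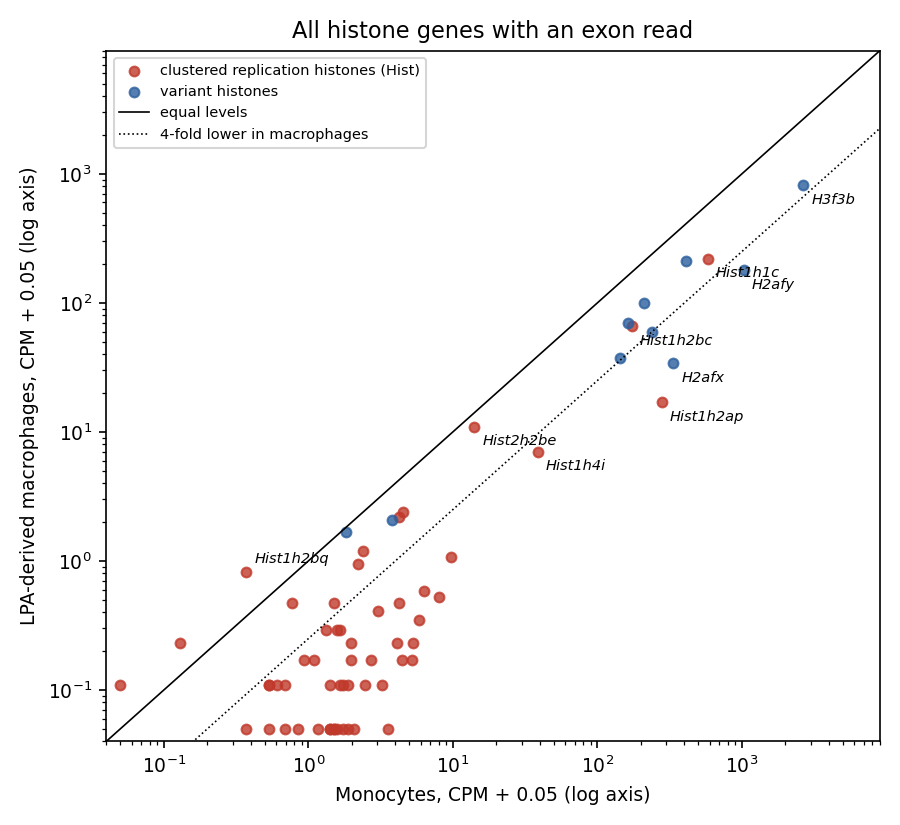
CPM, with a small offset so that 0 can be drawn, on log axes in monocytes (horizontal) and LPA-derived macrophages (vertical) of the 66 histone genes with an exon read. Most clustered genes lie at low level below the dotted line of a 4-fold difference, while Hist1h1c, Hist1h2bc and Hist2h2be lie above it among or near the variants.

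The 4 Hist genes named above as polyadenylated in differentiated human tissue differed less between libraries than the other Hist rows in sum. They are not a full list of the genes so described, and others may be among the rows set against them. Hist1h1c, Hist1h2bc, Hist2h2be and Hist4h4 summed to 767.2 and 297.1 CPM, 2.58-fold lower (2.49 to 2.67). Hist1h1c held 7215 of their 9569 reads in monocytes and 3678 of 4970 in macrophages. The other 67 Hist rows summed to 432.9 and 37.8 CPM, 11.5-fold lower (10.5 to 12.5), and Hist1h2ap held 3471 of their 5400 reads in monocytes and 283 of 632 in macrophages. Hist4h4 was unlike the first 3, with 24 and 3 reads, 10.7-fold lower (3.26 to 55.7). A poly(A) signal, AATAAA or ATTAAA, was sought in the last 50 bases of a single annotated transcript per gene. The 15 protein-coding Hist genes with one had a median deposited RPKM of 1.25 and 0.129, and the 50 without had 2.75 and 0.114. In sum the former were 2.69-fold lower (2.59 to 2.79) and the latter 5.95-fold lower (5.63 to 6.29). Hist1h1c (311.4 RPKM in monocytes) is in the first group, and Hist1h2ap (484.8) and Hist1h2bc (197.2) are in the second. The transcript searched can differ from the one counted, as for Hist1h2bc, with 1156 bases against a deposited exon length of 736. The variants H3f3b and H2afy had no signal by this search either, so a missing match does not show that a poly(A) tail is missing.

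**Figure D3:**
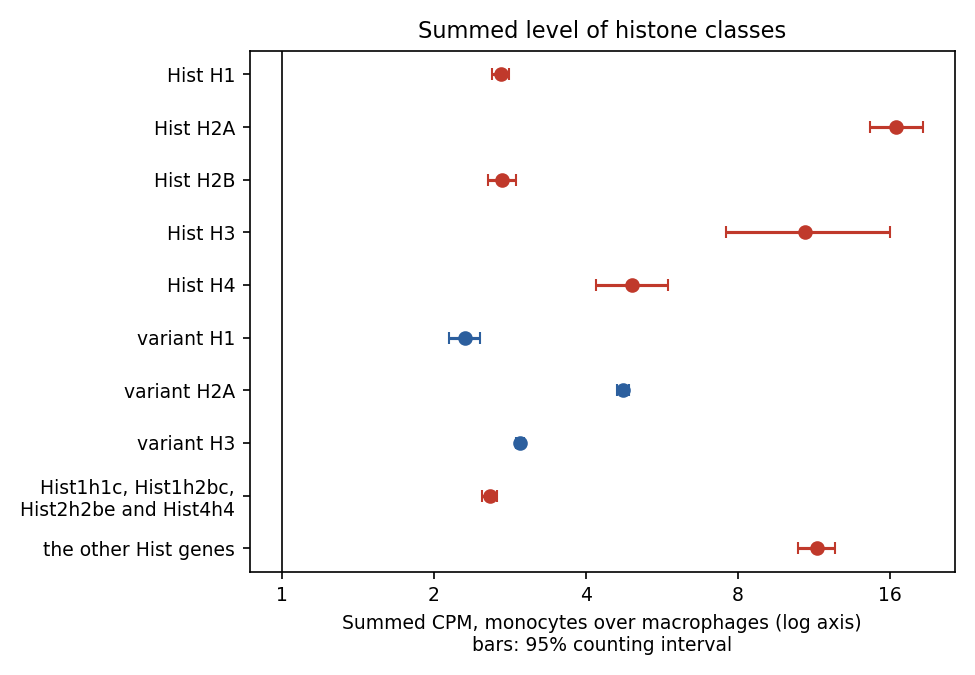
Ratio of summed CPM, monocytes over LPA-derived macrophages, on a log axis for each histone class, with exact 95% counting intervals, 1 library each. Replication H2A (16.5) and H3 (10.8) lie furthest from 1, and the 4 Hist genes named as polyadenylated (2.58) lie near the variant classes.

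The genes of the Hist1 cluster lie in separate blocks on chromosome 13. Outside these lies the pseudogene Hist1h2al, which had no exon read. The 24 rows from 21715763 to 22043676 summed to 345.6 and 27.0 CPM, 12.8-fold lower (11.6 to 14.2), and the 31 rows from 23531050 to 23934851 to 825.5 and 294.7 CPM, 2.80-fold lower (2.71 to 2.90). Much of this gap came from the most abundant genes. Without Hist1h2ap the first block was 6.70-fold lower (5.67 to 7.96), and without Hist1h1c and Hist1h2bc the other was 8.55-fold lower (7.17 to 10.3), the opposite order with overlapping intervals. The 11 Hist2 rows on chromosome 3 had 238 and 211 reads, 1.51-fold lower (1.25 to 1.83), most of them in Hist2h2be.

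The H3.3 gene H3f3b was the variant with most reads. H3f3b (chromosome 11, 116021912 to 116027962) stood at 2660 and 823.4 CPM, 3.23-fold lower (3.17 to 3.296). The authors' deposited table gives 4.99-fold for it. H3f3a (chromosome 1, 180800832 to 180813943), which encodes the same protein, stood at 413.0 and 212.3 CPM, a ratio of 1.95 (1.86 to 2.03) that lies within 2-fold on log2(CPM + 1). H3f3a thus differed less than its partner, with intervals apart, and its share of variant reads was 7.95% (7.74 to 8.16%) in monocytes and 14.0% (13.5 to 14.4%) in macrophages. Few of their gene reads lay in introns, with shares at 1.45 and 3.10% of gene reads for H3f3b and at 2.77 and 2.28% for H3f3a.

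H2A variants were lower in all 5 cases past the floor, by unequal factors. H2afx (chromosome 9, 44334694 to 44336077), whose product is phosphorylated beside DNA breaks and whose transcript carries the stem-loop shown above, stood at 334.2 and 34.0 CPM, 9.82-fold lower (8.997 to 10.7). That was the largest ratio among the 8 variants past the floor. H2afy (chromosome 13, 56073619 to 56136361), the gene of macroH2A1, which is enriched on silent chromatin such as the inactive X, stood at 1030 and 180.0 CPM, 5.72-fold lower (5.501 to 5.96). Its relative H2afy2 had 22 and 27 reads, a ratio of 1.09 (0.593 to 1.99), under the floor. The genes of H2A.Z, a variant at promoters, were close to each other: H2afz (chromosome 3, 137864487 to 137866922) stood at 239.5 and 59.4 CPM, 4.03-fold lower (3.75 to 4.33), and H2afv at 143.2 and 37.4 CPM, 3.83-fold lower (3.49 to 4.20). H2afj, which encodes a minor H2A variant, stood at 210.3 and 100.3 CPM, 2.10-fold lower (1.97 to 2.23), and was within 2-fold after centring and by the authors' deposited fold change. Of the 5 variants whose introns were examined, H2afz had the highest intron share in monocytes, with 30.8 and 19.5% of gene reads, and H2afy the highest in macrophages, with 17.1 and 24.0%.

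Members with no exon read in either library numbered 26, of which 17 are protein-coding and 8 are listed with an exon length of 0. Genes of the germ line are among them: the testis genes Hist1h1t, Hist1h2aa, Hist1h2ba and H1fnt, the oocyte linker gene H1foo, and H2afb1, H2afb2 and H2afb3. A count of 0 allows up to 3 reads, or 0.241 and 0.179 CPM. Hist2h2aa1, Hist2h2aa2, Hist2h2bb_2, Hist2h3b and Hist2h3c1 have no 50-base word of their own in GENCODE M21, so their 0 says nothing of their expression. H2af-ps, H2afy3, H3f3a-ps1, H3f3a-ps2, H3f3c and the antisense transcript H3f3aos also had no exon read. The same held for the protein-coding Hist1h4b, Hist1h4m, Hist2h2ab and Hist3h2a, with 24.1, 10.2, 35.2 and 68.5% of their 50-base words to themselves.

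Within each class, variants had a larger share in the macrophage library. By summed deposited RPKM, which allows levels of genes of different length to be compared within a library, variant genes made up 15.6% of H1 in monocytes and 18.5% in macrophages, 54.1 and 81.3% of H2A, and 96.2 and 99.2% of H3. Without Hist1h2ap the H2A shares were 94.5 and 98.5%, so that the larger difference rested on 1 gene. These shares carry no counting interval, being sums of length-scaled values, and the part of near-identical gene copies in them was not tested. They need not be shares of all H1, H2A or H3 mRNA, since the labels do not say whether poly(A) RNA was selected. Exon reads also leave out a larger part of the gene reads of Hist genes under the floor, as given above. Of the 65 protein-coding Hist genes, 34 had under 50% of their 50-base words to themselves, and these were 14.5-fold lower (13.0 to 16.2) and the other 31 were 2.83-fold lower (2.73 to 2.92). Most of that gap was in 3 genes. Without Hist1h2ap the former were 7.36-fold lower (5.77 to 9.49), and without Hist1h1c and Hist1h2bc the latter were 4.92-fold lower (4.44 to 5.47).

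**Figure D4:**
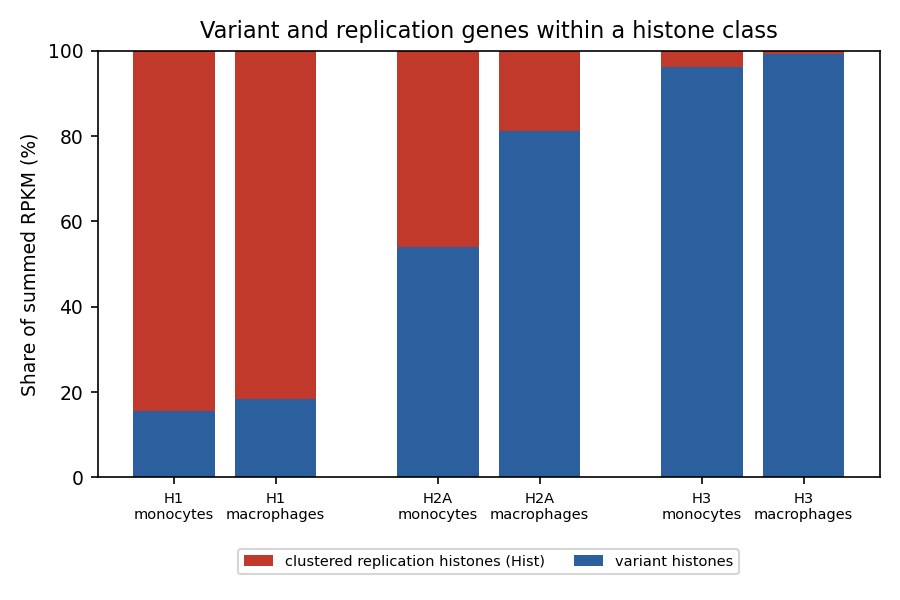
Share of summed RPKM held by variant (blue) and clustered replication genes (red) within H1, H2A and H3 in each library, on a linear axis from 0 to 100%. The variant share of H2A was 54.1% in monocytes and 81.3% in macrophages, and that of H3 was above 96% in both. Whether poly(A) RNA was selected is not known, so the shares need not be those of all histone mRNA.

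Promoters were compared because clustered genes carry well known elements near the start site: the CCAAT box, the TATA box, the octamer of H2B genes and the AAACACA box of H1 genes. RefSeq promoters (GRCm38.p6, 250 bases before to 50 after the start) were found for 77 of the 92 members through symbols and synonyms, and exact words were searched on both strands. CCAAT was in 53 of 62 Hist promoters (85.5%), in 9 of 15 variant promoters (60.0%) and in 37.4% of 32851 promoters in all. All 50 Hist promoters of the H1, H2A, H2B and H3 classes held it, but only 3 of 12 H4 promoters did. TATAAA was in 35 of 62 Hist (56.5%) and 1 of 15 variant promoters (6.67%), against 13.6%. ATTTGCAT was in 14 of 62 Hist promoters (22.6%), 7 of 18 for H2A and 7 of 16 for H2B genes, against 1.74%. These counts are not of independent promoters. Hist2h2bb_1 and Hist2h2bb_2 have the same promoter, counted for both. Those of some H2A and H2B neighbours, such as Hist1h2ae and Hist1h2bg, overlap on opposite strands, so the same word can count for both. AAACACA was in 5 of 6 Hist H1 promoters, against 7.18%. The promoters below are those of the most abundant H1 gene, a low H2B gene and the most abundant variant, at chr13:23738557-23738856 (plus strand), chr13:23571150-23571449 (plus strand) and chr11:116024455-116024754 (minus strand). Capitals mark these words.
Hist1h1c promoter: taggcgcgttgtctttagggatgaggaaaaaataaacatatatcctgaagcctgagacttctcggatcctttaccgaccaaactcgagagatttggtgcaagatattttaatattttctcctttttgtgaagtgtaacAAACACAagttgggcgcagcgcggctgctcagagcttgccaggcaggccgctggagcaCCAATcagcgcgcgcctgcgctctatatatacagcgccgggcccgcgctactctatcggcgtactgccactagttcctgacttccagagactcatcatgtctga
Hist1h2bg promoter: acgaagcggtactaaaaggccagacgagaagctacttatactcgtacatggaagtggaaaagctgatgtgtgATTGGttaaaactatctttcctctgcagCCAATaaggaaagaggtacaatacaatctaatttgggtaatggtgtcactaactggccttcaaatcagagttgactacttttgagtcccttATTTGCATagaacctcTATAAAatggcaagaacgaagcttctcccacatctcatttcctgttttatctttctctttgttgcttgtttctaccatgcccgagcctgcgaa
H3f3b promoter: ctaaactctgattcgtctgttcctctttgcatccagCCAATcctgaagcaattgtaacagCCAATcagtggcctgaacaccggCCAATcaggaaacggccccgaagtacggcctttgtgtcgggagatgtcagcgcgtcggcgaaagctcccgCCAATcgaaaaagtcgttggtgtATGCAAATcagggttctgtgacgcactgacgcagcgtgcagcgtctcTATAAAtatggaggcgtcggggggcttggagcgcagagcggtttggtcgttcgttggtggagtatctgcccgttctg
The H3f3b promoter was the variant promoter that held TATAAA and ATTTGCAT. A word match is not a binding site, and its part in the levels was not tested.

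Of the genes that act on histone mRNA and histones, some were called lower and none higher. Of 17 histone mRNA transcription and processing genes compared, 8 were lower and 9 within 2-fold, where 19.9% of all genes were lower (median log2 ratio -0.91, against -0.23 for all genes). Slbp, the stem-loop binding protein gene, stood at 145.0 and 42.1 CPM, 3.44-fold lower. Cstf2, a cleavage factor subunit gene, was 2.78-fold lower, Casp8ap2, whose product acts in histone mRNA processing, 2.51-fold, the exonuclease gene Eri1 2.50-fold and the cap-binding protein gene Ncbp1 2.49-fold. Of 30 histone chaperone and exchange genes, 19 were lower and 11 within 2-fold (median -1.38), against the same 19.9%, which also stands beside the smaller sets that follow. The replication-coupled set was lower in 6 of 7 cases (median -2.03), among them Mcm2 (7.48-fold), Asf1b (6.36-fold) and Chaf1a, of chromatin assembly factor 1 (5.33-fold), and the CENP-A set in 5 of 5 (median -1.90), with Hjurp 4.88-fold and the centromeric H3 gene Cenpa 4.53-fold lower. The importin gene Ipo4, the other member of the replication-coupled set, lay within 2-fold at 21.1 and 40.9 CPM. Of the 6 replication-independent H3.3 chaperone genes 2 were lower, Hira and Ubn1 (median -0.92), as were 3 of 5 H2A.Z exchange genes (median -1.21) and 3 of 7 genes of FACT and general chaperones (median -0.97).

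S phase genes were lower alongside the histone genes. Of 19, 18 were lower and none higher, where 19.9% of all genes were lower (median log2 ratio -2.74). On log2(CPM + 1) the largest differences were those of Cdc6 (13.6-fold in CPM), Mcm5 (10.7-fold), Mcm7 (10.1-fold), Mki67 (9.62-fold) and Top2a (8.59-fold). By CPM ratio alone Tyms (9.14-fold) lay above Top2a. Pcna (449.0 and 548.5 CPM), the polymerase clamp gene, was the exception. Markers of other marrow cells also differed between the libraries. All 4 granulocyte precursor genes were lower in macrophages, with sums of 10393 and 126.9 CPM, all 4 erythroid genes were lower (121.7 and 2.75 CPM, with Hbb-bs, Slc4a1 and Car1 at 0 reads in macrophages), and so were both B lineage genes past the floor of 4 listed (33.6 and 1.49 CPM over the 4, Dntt at 0 reads in macrophages). Of 5 neutrophil genes 3 were lower and 2 higher (9611 and 1914 CPM). The part of these cells and of cycling cells in the histone values was not tested.

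**Figure D5:**
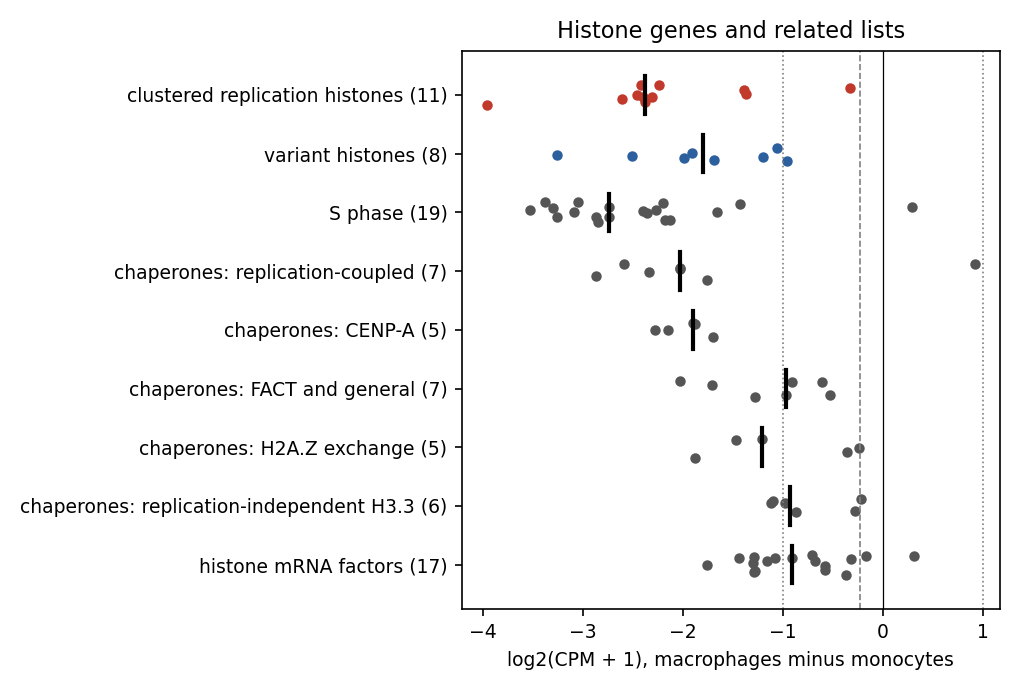
Differences in log2(CPM + 1), macrophages minus monocytes, for histone genes and related genes at 5 CPM or more in either library (number in brackets), with black bars at the medians, dotted lines at 2-fold and a dashed line at the median of all genes (-0.23). The bar of the clustered histones (-2.38) is set in part by the floor, as the 5 at the floor in both libraries have a median of -1.39. Among the related lists the median of the S phase genes (-2.74) lies furthest to the left, and those of the histone mRNA factors (-0.91) and the H3.3 chaperones (-0.92) nearest to the dashed line.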

How the data were processed

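The authors deposited 1 table with 47643 gene rows. Per the file headers it holds counts of unique reads per gene, exon and intron, RPKM, a normalized signal whose sorted values are the same in both libraries, a signed fold change of that signal (a score, minus where monocytes are higher) and the p-value of Baggerley's test after FDR correction. Exon length in bases is another deposited column. The submitters' processing notes name mm9, but the deposited coordinates of 67 of the 92 histone rows are those of GENCODE M21 on GRCm38, which is used here, 1-based. No source used here gives the mapper, the counter or the use of strand, so reads of the antisense H3f3aos and of H3f3a cannot be told apart. Total and unique exon reads were equal in each row, so these columns hold no separate count of reads shared between near-identical histone genes.

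Unique exon reads were scaled to CPM. Folds are CPM ratios with exact Clopper-Pearson intervals conditional on the summed reads, and a 0 was set to 3 reads for a ratio or an upper limit. The labels mention no molecular identifiers, so intervals and limits cover counting error only. Members and lists were chosen with earlier results of these data known. Named are Hist genes at 5 CPM or more, the 5 highest below it, variants, and at most 5 genes of a related list. The latter were taken by size of difference in log2(CPM + 1), so a gene with a larger CPM ratio can go unnamed. Germ line genes, Hist1h1a, Hist1h2ao and members without reads were added after their values were seen, as were Pcna, Ipo4, Hira and Ubn1. Alternatives were other centring, totals, read types, pseudocounts, floors and call sizes. Python 3.11.15, pandas 2.3.3, numpy 2.4.6 and scipy 1.17.1 were used.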

Additional observations from a re-analysis of the deposited data

Results flagged for a closer look

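Some rows had no exon read in either library and yet more than 3 reads in the deposited gene counts, which the comparisons did not use. The largest count of the pair of libraries was 12 for the pseudogene Hist3h2bb-ps, 11 for the antisense transcript H3f3aos, 8 for the pseudogene Hist1h2aj, 6 for the pseudogene H3f3c and 4 for the pseudogene H3f3a-ps1. All but H3f3aos are listed with an exon length of 0. Their source was not tested.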

How the results depend on the processing

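No replicate could be left out, and no paired analysis was possible because each group has 1 library. None of the alternatives run turned the direction of a summed level or of a called gene. The log2 ratio of the summed Hist genes, -1.84 as reported, was -1.61 when centred on the median of all genes, -1.62 on the trimmed mean, -1.67 with totals without the 20 highest genes, -1.77 with unique gene reads, -1.78 with total gene reads, -2.43 without Hist1h1c and -1.54 without Hist1h2ap. That of the variants, -1.77 as reported, was -1.54, -1.55, -1.61, -1.71 and -1.71 under the same scalings and reads, and -1.86 without H3f3b. The cause was not tested. The count of Hist genes called lower, 10 as reported, was 35 with a floor of 1 CPM and with no floor, since more genes then enter, and 4 with a floor of 25 CPM, since fewer do. The share of all genes called was not taken at these floors. Most rows that enter at 1 CPM reach it in monocytes only, so the count of 35 supports nothing by itself. With a pseudocount of 5 the count of Hist genes called lower was 8, as Hist1h1b (-0.98) and Hist1h2bb (-0.99) then lay within 2-fold. With unique gene reads and with total gene reads it was 12. The count of variants called lower, 7 as reported, was 5 after centring and 2 with a call at 4-fold, a stricter rule. Total gene reads, leaving out Hist1h2ap, leaving out the 3 highest genes and a floor in both libraries were chosen after seeing the data. Centring also moved the split over all genes, from 41.0% of calls higher to 54.3%. Depth limits the Hist genes under 5 CPM, which had at most 56 reads in monocytes and 39 in macrophages.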
